A study of Mus musculus with 76 samples.

Results

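The genes described here are 36 genes of amino acid supply and of the stress response run by the transcription factor ATF4. They were chosen by name: transcription factors of the response, its effectors, enzymes of serine, folate, asparagine, proline and cysteine synthesis, amino acid transporters and aminoacyl-tRNA synthetases. Of the 36 genes, 35 were measured and tested, among 13868 genes tested and 18194 genes with a probe set. Pycr1, a proline synthesis enzyme, has no probe set under that name and was not analysed here. Their levels in HER2 tumours were known to be high when this comparison was chosen.

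Expression was measured in 76 tumour samples of C57BL/6 mice with 1 Affymetrix array each. The sample titles call the arrays biological replicates, but whether each sample came from a separate tumour is not known. The tumours come from directed complementation, in which a doxycycline-inducible HER2(V659E) oncogene that drove the parental tumours is shut off by withdrawing doxycycline and an introduced gene takes its place. All 13 groups share this origin. The introduced genes were HER2 itself, RON+MSP (a receptor kinase with its ligand), PIP5K1B (a lipid kinase), RONd160 (a form of the same receptor), FGFR2aIIIb, FGFR2aIIIc, MAP3K11, ErbB3, RSK2, FGFR3, TNK2, FAK1 and MAP3K7. There were 4 arrays for FAK1 and 6 for each of the other 12 groups. MAP3K11 tumours are labelled with cachexia, the wasting of the body in cancer, and the others without it. The tissue label says only that the material is tumour. Each array carries a label T1, T2 or T3 that is not explained, and animals, tumour lines and ages are not given, so each p-value rests on the spread from array to array, part of which may be technical.

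When amino acids run short, protein folding fails or haem is lacking, kinases phosphorylate the initiation factor eIF2. Most translation then slows, while the mRNA of ATF4 is translated more. ATF4 pairs with C/EBP proteins at composite sites in promoters and raises genes that make, import and load amino acids onto tRNA, together with stress genes such as Ddit3 (CHOP) and Trib3. In tumours the same genes are also known to be raised by growth factor signalling through mTORC1 and MYC.

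Some of these promoters hold the C/EBP-ATF response element core, TGATGNAA, where N is any base. The search took 250 bases before to 50 after the start site in RefSeq's promoter table (GRCm38.p6), on both strands. The core was found in 9 of the 27 measured genes with a promoter in the table (33.3%), against 1219 of 27025 genes in all (4.51%). It was in 7 of 22 genes called higher in HER2 tumours and in 2 of 5 that were not. Those 9 are Asns, Atf3, Chac1, Gars, Nupr1, Slc1a4, Slc7a11, Trib3 and Vldlr. The cAMP response element TGACGTCA, also searched on both strands, was in 0 of the 27 windows and in 2.03% of all genes. With no TGACGTCA in these windows, the 2 motifs did not overlap. A match is a run of letters, not a measured binding site. The genes were listed by name for the ATF4 response, so these shares are a description and not a test. The 4 promoters below belong to the genes with the core and the largest HER2 difference. Each is written 5′ to 3′ on the gene's strand with the core, or its reverse complement, in capitals.
Trib3, chr2:152344039-152344310, minus strand: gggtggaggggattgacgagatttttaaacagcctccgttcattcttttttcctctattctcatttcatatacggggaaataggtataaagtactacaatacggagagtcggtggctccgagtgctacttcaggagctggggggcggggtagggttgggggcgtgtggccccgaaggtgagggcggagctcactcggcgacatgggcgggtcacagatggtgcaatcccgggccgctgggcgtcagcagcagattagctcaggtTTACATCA
Chac1, chr2:119350992-119351241, plus strand: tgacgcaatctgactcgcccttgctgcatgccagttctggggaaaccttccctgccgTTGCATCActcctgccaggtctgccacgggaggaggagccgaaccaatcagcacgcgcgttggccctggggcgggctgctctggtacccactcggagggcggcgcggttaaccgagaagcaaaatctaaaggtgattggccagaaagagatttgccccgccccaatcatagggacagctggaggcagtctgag
Vldlr, chr19:27216770-27217019, plus strand: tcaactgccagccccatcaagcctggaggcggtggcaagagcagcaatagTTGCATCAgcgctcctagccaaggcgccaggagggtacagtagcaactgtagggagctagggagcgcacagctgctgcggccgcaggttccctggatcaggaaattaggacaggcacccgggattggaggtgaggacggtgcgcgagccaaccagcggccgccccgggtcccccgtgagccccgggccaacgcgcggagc
Asns, chr6:7693210-7693459, minus strand: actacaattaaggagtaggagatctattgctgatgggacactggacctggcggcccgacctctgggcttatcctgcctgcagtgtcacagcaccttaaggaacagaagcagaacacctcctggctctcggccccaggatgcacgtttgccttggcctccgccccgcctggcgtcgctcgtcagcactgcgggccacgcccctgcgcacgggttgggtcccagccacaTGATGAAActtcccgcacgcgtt

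In Trib3 the core begins at base 15 after the start site, and in the other 3 it lies before it, at -193 in Chac1, -200 in Vldlr and -23 in Asns. Vldlr has 2 promoters in the table, and the one with the core is shown.

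All values are log2 levels, with array medians of 5.45 to 5.56. The background, taken from probe sets for a trp gene of bacteria, had a median of 2.95. Of the 35 genes, 31 lay above the filter on low values in all 76 arrays. The others were Vldlr, above it in 75 arrays, Slc7a3 in 70, Cth in 65 and Slc7a11 in 49. Pairs were formed inside each group by how well the chromosome medians of its arrays correlated. The median of that r was 0.957 within the 38 pairs and 0.162 between other arrays of 1 group. Pairs were chosen on this r, so the gap cannot test whether the pairing is real. For residual expression, on which pairs were not matched, the median r was 0.771 within pairs and 0.271 between other arrays of 1 group. Both measures come from the same arrays. The arrays of all 38 pairs carry different T labels. Since paired arrays may not be independent, counts are also given with the pair as a random block. The mouse Erbb2 gene spanned 6.53 to 7.19 (median 6.84) in HER2 arrays, against 6.29 to 7.02 (median 6.72) in the other 70. That difference was not called (0.17, SE 0.07, adjusted p = 0.062, limma), and a human or rat transgene need not be seen by this probe set.

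In HER2 tumours, 25 of the 35 genes were higher than the mean of the other 12 groups and 0 were lower at an adjusted p under 0.05. Over all genes tested, 15.5% were called higher and 11.1% lower. The median difference was 0.41 for the 35 genes and 0.01 for all genes. Serine and one-carbon enzymes (Psph, Psat1, Mthfd2), the cysteine enzyme Cth, asparagine synthetase Asns and the stress effectors Trib3, Chac1 and Vldlr differed most, by 0.69 to 1.71 on the log2 scale. HER2 ranked first of the 13 groups for 21 of the 25 genes and second for 4. All probe sets of each of the 25 genes were higher in HER2 tumours, though by as little as 0.02 for a Cebpg probe set. With pairs as a block, 18 genes were called higher and 0 lower (5.91% and 3.63% of all genes tested). An adjusted p or SE given without mention of the block comes from the fit without it, which treats paired arrays as independent. Of all genes called in the fit without the block, 58.2% were higher, and with each array centred on its median 74.1% were, with 27 of the 35 genes called higher and 0 lower.

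**Figure D1:**
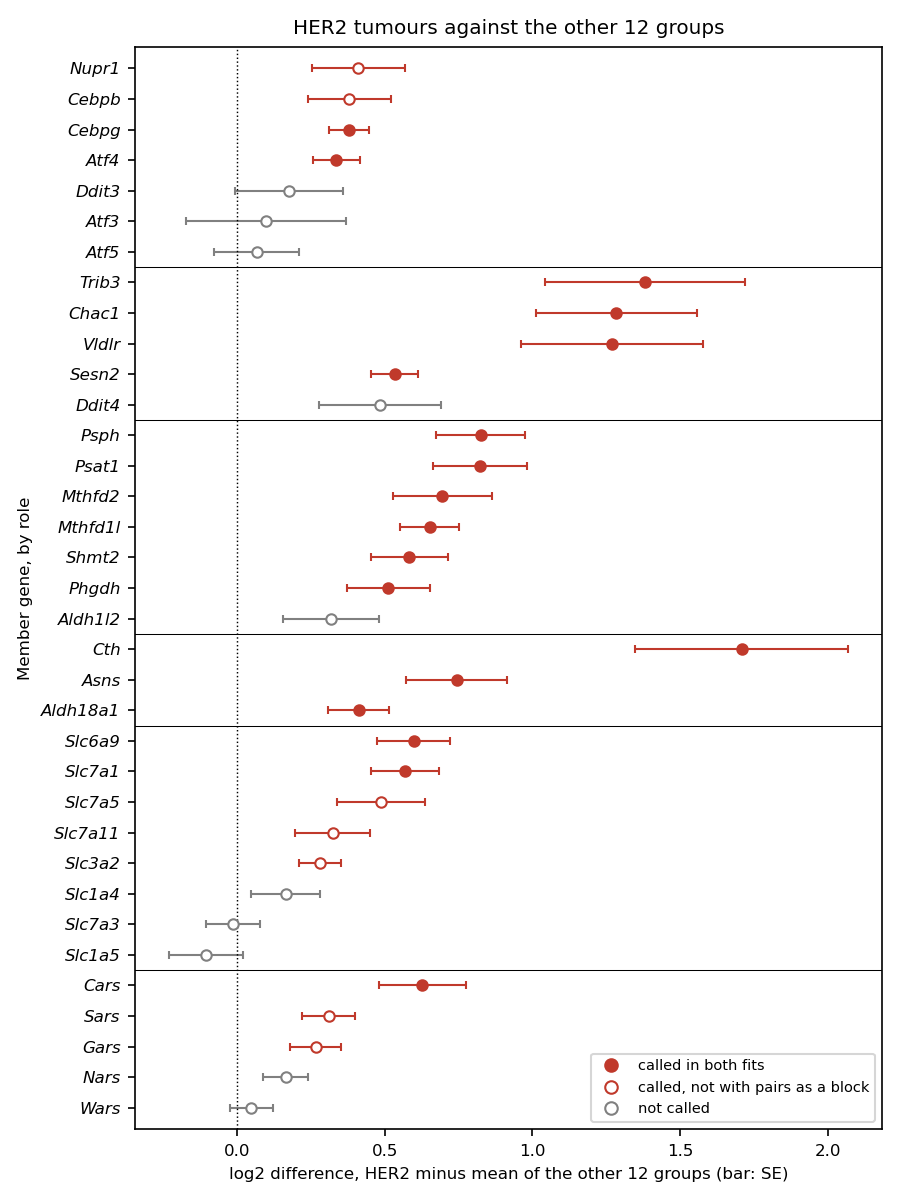
Difference between HER2 tumours and the mean of the other 12 groups for each of the 35 genes, on the log2 scale, with bars for the SE and lines between role groups. Filled red points are called in both fits, open red points are not called with the pairs as a block, and open grey points are not called. Cth, Trib3, Chac1 and Vldlr lie furthest right, and Slc7a3 and Slc1a5 lie left of 0.

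No gene separated the groups fully. For each of the 25 genes, 1 to 46 of the other 70 arrays lay above the lowest HER2 array. Across all genes, 3 (0.0216%) had every HER2 array above every other array, and none of the 35 genes was among them. Against a single group, which has 6 arrays or, for FAK1, 4, the counts can only be as large or larger. Every HER2 array lay above every FAK1 array for 22 of the 35 genes (7.13% of all genes), above every MAP3K7 array for 19 (8.1%), every RSK2 array for 16 (8.6%), every MAP3K11 array for 15 (18.1%) and every TNK2 array for 14 (5.59%). The count was 13 against FGFR3 (5.4%) and RONd160 (6.58%), 12 against FGFR2aIIIc (4.58%), 8 against RON+MSP (6.08%), 4 against ErbB3 (8.21%) and FGFR2aIIIb (2.7%) and 3 against PIP5K1B (3.14%). These last 3 genes were Vldlr, Psph and Mthfd1l.

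The transcription factors showed small differences. Of 7, 4 rose in HER2 tumours. Cebpg and Atf4 kept the call with pairs as a block, at adjusted p = 0.0050 and 0.025 by limma. In what follows the 6 HER2 values are in the order T1 replicate 1, T2 replicate 2, T1 replicate 2, T3 replicate 2, T2 replicate 1 and T3 replicate 1, so that paired arrays stand together. Atf4, the factor itself, whose control is largely at translation, had 11.67, 11.74, 11.51, 11.63, 12.01 and 12.14 in HER2 arrays. The pair of T2 replicate 1 and T3 replicate 1 was the highest. The mean was 11.78 ± 0.24 in HER2 tumours and 11.45 in the other 12 groups (SD, n = 6). The difference was 0.34 (SE 0.08, adjusted p = 0.001, limma), and 30 of the other 70 arrays lay above the lowest HER2 array. Cebpg, a C/EBP partner of ATF4, had 9.61, 9.77, 9.79, 9.80, 9.87 and 9.70 in HER2 arrays, against 8.82 to 10.11 (median 9.36) in the other 70. All 6 lay above the median of the others, and 10 other arrays lay above the lowest of them (difference 0.38, SE 0.07, adjusted p = 2.9e-05, limma). Cebpg has 3 probe sets, with differences from 0.02 to 0.38.

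Cebpb, another C/EBP factor with roles in inflammation and differentiation, had 10.79, 10.79, 10.41, 10.56, 10.81 and 10.38 in HER2 arrays, against 9.53 to 11.23 (median 10.21) in the others. Nupr1, a stress-induced chromatin protein, had 10.54, 10.85, 10.37, 10.82, 11.24 and 11.31 in HER2 arrays, against 9.41 to 11.47 (median 10.50). Both overlapped the others widely. Their differences of 0.38 (SE 0.14, adjusted p = 0.036, limma) and 0.41 (SE 0.16, adjusted p = 0.046, limma) were lost with the block, at adjusted p = 0.17 and 0.21. Ddit3 (CHOP), Atf3 and Atf5 were not called, with differences of 0.18, 0.10 and 0.07. Their HER2 arrays spanned 7.93 to 9.22, 7.08 to 8.45 and 8.78 to 9.67.

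Among the stress effectors, 4 of 5 rose in HER2 tumours and all 4 kept the call with the block. There the adjusted p by limma was 0.037 for Trib3, 0.031 for Vldlr, 0.020 for Chac1 and 0.00085 for Sesn2. Trib3, a pseudokinase that restrains ATF4 and AKT, had 8.86, 8.75, 7.85, 8.66, 9.22 and 9.21 in HER2 arrays, against 5.67 to 9.30 (median 7.42) in the other 70. All HER2 arrays were above that median, and the T1 replicate 2 array was the lowest. The difference was 1.38 (SE 0.34, adjusted p = 0.0017, limma), a 2.60-fold higher level.

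Chac1, which breaks down glutathione, had 9.64, 9.27, 8.08, 9.19, 9.74 and 9.72 in HER2 arrays, against 6.62 to 9.37 (median 8.04). The same HER2 array was low, close to the median of the others, while 3 HER2 arrays were above every other array. The difference was 1.28 (SE 0.27, adjusted p = 0.00035, limma). Vldlr, a lipoprotein receptor induced by ATF4 under stress, had 7.11, 7.27, 7.63, 7.49, 8.27 and 8.70 in HER2 arrays, against 4.68 to 8.52 (median 6.38). Its difference of 1.27 (SE 0.31) had an adjusted p of 0.0015 by limma, and 16 other arrays exceeded the lowest HER2 array. It has 6 probe sets, with differences from 0.39 to 1.42.

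Sesn2, a leucine-sensing brake on mTORC1, spanned 7.13 to 7.73 in HER2 arrays and 6.46 to 7.57 in the others (difference 0.53, SE 0.08, adjusted p = 1.4e-06, limma). Ddit4 (REDD1), another brake on mTORC1, spanned 10.98 to 11.40 in HER2 arrays and 9.30 to 12.48 in the others and was not called (difference 0.48, SE 0.21, adjusted p = 0.071, limma).

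**Figure D2:**
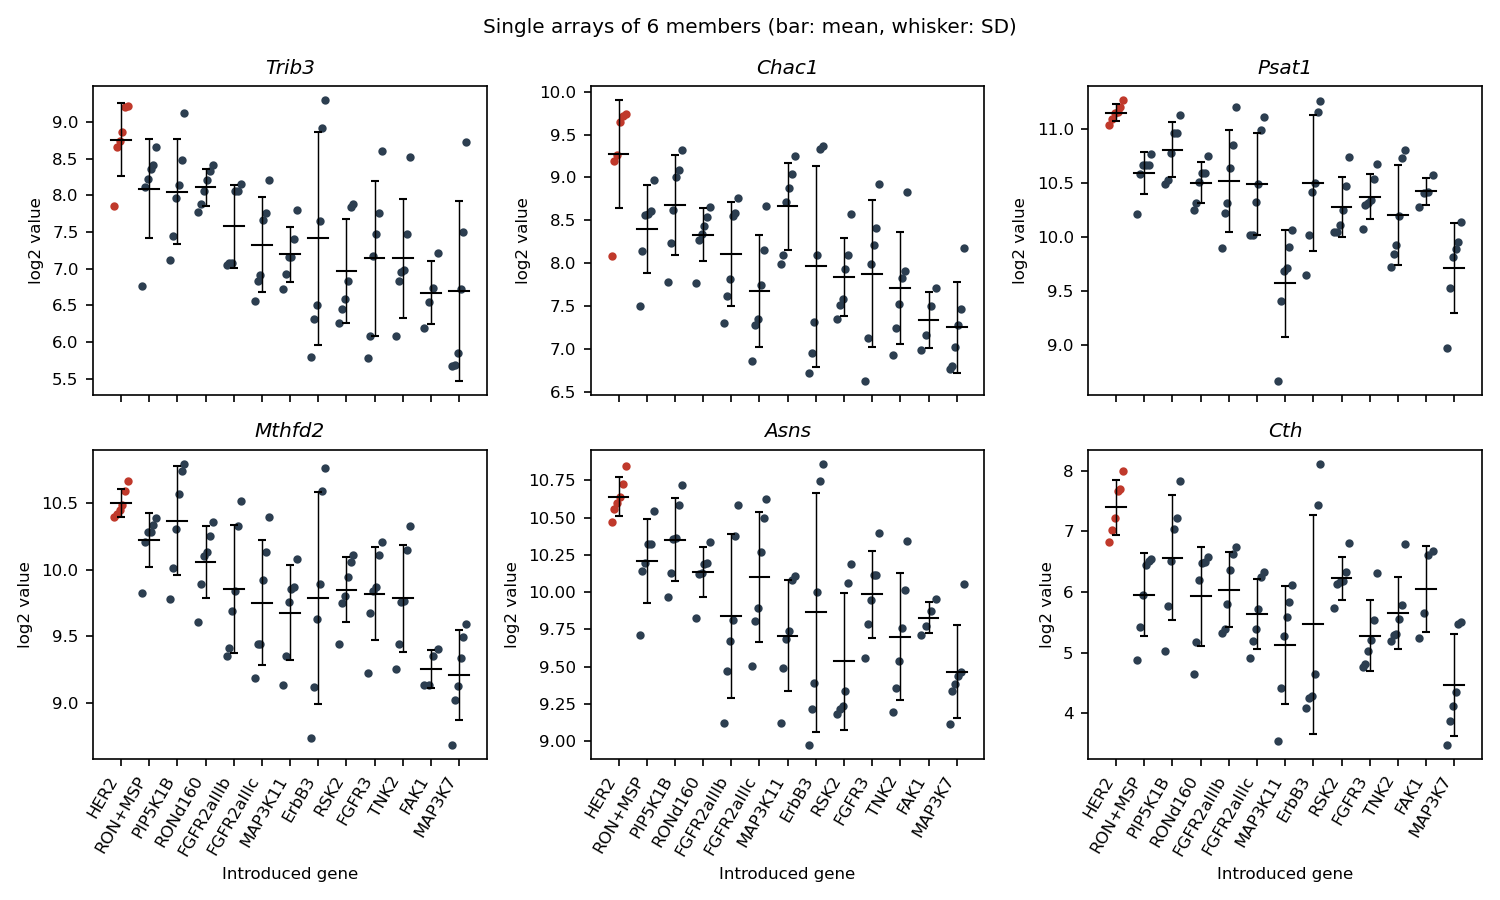
Log2 values of Trib3, Chac1, Psat1, Mthfd2, Asns and Cth in single arrays by introduced gene, with HER2 in red at the left, the group mean as a bar and the SD as a whisker (4 arrays for FAK1, 6 for each other group). HER2 arrays lie above the median of the other arrays in each panel, though in the Chac1 panel the lowest, at 8.08, is close to that median of 8.04. The high ErbB3 pair reaches the HER2 level, and the other 4 ErbB3 arrays lie below the lowest HER2 array except 1 in the Chac1 panel, at 8.09.

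Serine synthesis and the mitochondrial folate cycle feed glycine and one-carbon units into nucleotide synthesis. Of the 7 genes, 6 rose in HER2 tumours, and all 6 kept the call with the block. There the adjusted p by limma ran from 0.00046 for Mthfd1l to 0.027 for Phgdh. Psph, the last enzyme of serine synthesis, had 9.71, 9.71, 9.65, 9.66, 9.81 and 9.69 in HER2 arrays, against 8.17 to 10.09 (median 8.88) in the others. The HER2 arrays lay close together, and 2 other arrays exceeded the lowest (difference 0.83, SE 0.15, adjusted p = 4.5e-05, limma). Psat1, the transaminase before it, had 11.04, 11.16, 11.10, 11.15, 11.27 and 11.21 in HER2 arrays, against 8.66 to 11.26 (median 10.34). The difference was 0.82 (SE 0.16, adjusted p = 9.8e-05, limma), and 5 other arrays exceeded the lowest HER2 array.

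Mthfd2, a mitochondrial folate enzyme, had 10.41, 10.48, 10.39, 10.45, 10.66 and 10.59 in HER2 arrays, against 8.69 to 10.79 (median 9.84). Its difference was 0.69 (SE 0.17, adjusted p = 0.0014, limma), with 6 other arrays above the lowest HER2 array. Mthfd1l, which releases formate from mitochondria, came closest to separation: HER2 arrays spanned 9.76 to 10.04 and the others 8.21 to 9.80, with 1 other array above the lowest HER2 array (difference 0.65, SE 0.10, adjusted p = 2.2e-06, limma). Shmt2, which makes glycine from serine in mitochondria, differed by 0.58 (SE 0.13), and Phgdh, the entry enzyme of serine synthesis, by 0.51 (SE 0.14). For Phgdh, PIP5K1B tumours ranked above HER2 tumours. Aldh1l2, a mitochondrial folate dehydrogenase, spanned 7.58 to 8.14 in HER2 arrays and 5.89 to 8.50 in the others and was not called (difference 0.32, adjusted p = 0.14, limma).

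The measured genes of asparagine, proline and cysteine synthesis, 3 in number, all rose and kept the call with the block. There the adjusted p by limma was 0.0052 for Cth, 0.020 for Asns and 0.046 for Aldh18a1. Cth, which makes cysteine from cystathionine, had 7.67, 7.70, 7.02, 7.21, 7.99 and 6.82 in HER2 arrays, against 3.48 to 8.12 (median 5.69) in the others. This was the largest difference of the 35 genes, 1.71 (SE 0.36, adjusted p = 0.00031, limma) or 3.27-fold, and 5 other arrays exceeded the lowest HER2 array. Asns had 10.60, 10.64, 10.47, 10.56, 10.85 and 10.72 in HER2 arrays, against 8.97 to 10.86 (median 9.95). The difference was 0.74 (SE 0.17, adjusted p = 0.00092, limma), and 8 other arrays exceeded the lowest HER2 array.

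Aldh18a1, the first enzyme of proline synthesis from glutamate, had 9.28, 9.24, 8.81, 9.04, 9.46 and 9.50 in HER2 arrays, against 8.16 to 9.65 (median 8.81). Here the T1 replicate 2 array lay at the median of the others (difference 0.41, SE 0.10, adjusted p = 0.0023, limma).

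Amino acid transporters were divided. Of 8, 5 rose. With the block 2 of them, Slc6a9 and Slc7a1, kept the call, at adjusted p = 0.0095 and 0.0048 by limma. Slc6a9, a glycine transporter, had 7.73, 8.16, 8.39, 8.33, 8.57 and 8.36 in HER2 arrays, against 6.98 to 8.43 (median 7.61), a difference of 0.60 (SE 0.12, adjusted p = 0.00024, limma). Slc7a1, which carries arginine and lysine, had 10.03, 10.05, 10.04, 10.18, 9.83 and 10.03 in HER2 arrays, against 8.81 to 10.11 (median 9.48), a difference of 0.57 (SE 0.11, adjusted p = 0.00018, limma). All 6 HER2 arrays of both genes lay above the median of the others.

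Slc7a5 (LAT1), the leucine carrier, had 8.68, 9.04, 8.86, 8.97, 9.01 and 8.84 in HER2 arrays, against 7.49 to 9.29 (median 8.41). Its difference was 0.49 (SE 0.15, adjusted p = 0.011, limma), and 0.071 was the adjusted p with the block. Its partner chain Slc3a2 differed by 0.28 (SE 0.07) and the cystine carrier Slc7a11 by 0.32 (SE 0.13). Both lost the call with the block, at adjusted p = 0.059 and 0.26. Slc1a4 and Slc1a5, carriers of small neutral amino acids and glutamine, and Slc7a3, a carrier of cationic amino acids, were not called, with differences of 0.17, -0.10 and -0.01. For Slc7a3, 69 of the other 70 arrays lay above the lowest HER2 array, which stood apart at 4.54. The rest of the HER2 arrays spanned 5.08 to 5.38.

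Of the 5 aminoacyl-tRNA synthetases in the list, 3 rose and Cars kept the call with the block (adjusted p = 0.015, limma). Cars (cysteine) had 9.66, 9.91, 9.90, 9.86, 9.96 and 9.96 in HER2 arrays, against 7.78 to 10.04 (median 9.28), a difference of 0.63 (SE 0.15, adjusted p = 0.00097, limma). Sars (serine) had 10.58, 10.65, 10.58, 10.67, 10.73 and 10.75 in HER2 arrays, against 9.79 to 10.82 (median 10.36), a difference of 0.31 (SE 0.09). Gars (glycine) had 11.34, 11.41, 11.24, 11.24, 11.37 and 11.35 in HER2 arrays, against 10.51 to 11.65 (median 11.05), a difference of 0.27 (SE 0.09). All 6 HER2 arrays lay above the median of the others for each of the 3 genes. Nars (asparagine) and Wars (tryptophan) were not called, with differences of 0.16 and 0.05.

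The 35 genes were averaged in each array, after each gene was set relative to its mean over all arrays. The HER2 arrays had means of 0.38, 0.46, 0.29, 0.43, 0.64 and 0.59 on the log2 scale. Of the other 70 arrays, 10 exceeded the lowest HER2 array and 0 exceeded the highest. The next groups were RON+MSP at 0.21 ± 0.15 and PIP5K1B at 0.20 ± 0.23, and the lowest was MAP3K7 at -0.35 ± 0.19 (SD, n = 6 each). The HER2 pair of T2 replicate 1 and T3 replicate 1 was the highest. Without that pair, 15 of the 35 genes were called higher and 0 lower (10.8% and 7.17% of all genes).

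**Figure D3:**
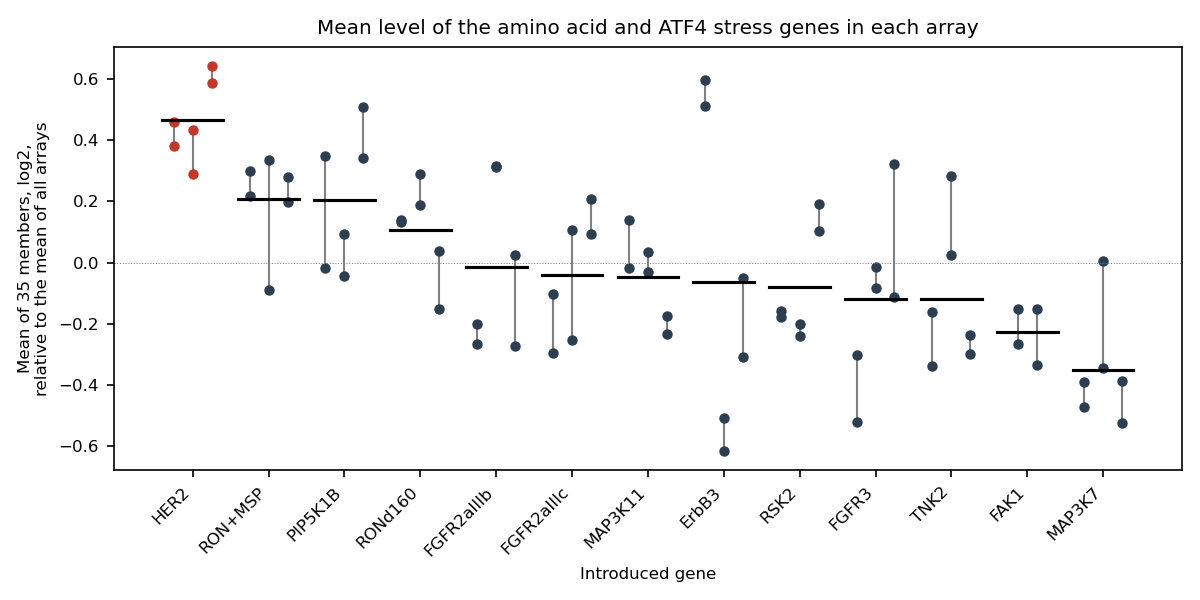
Mean of the 35 genes in each array, log2 relative to the mean of all arrays, by introduced gene, with HER2 in red at the left. Grey lines join the arrays of a pair and black bars are group means. HER2 arrays lie between 0.29 and 0.64, and the ErbB3 pairs lie far apart.

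ErbB3 is a receptor of the HER2 family and a partner of HER2 in signalling. Its tumours split by pair. The arrays of 1 pair, T1 replicate 1 and T3 replicate 1, had means of 0.60 and 0.51, at the level of HER2, with 33 of 35 genes above their own mean in each. The other 4 ErbB3 arrays had means of -0.51, -0.61, -0.05 and -0.31. Cth, for example, had 8.12 and 7.43 in the high ErbB3 pair and 4.28, 4.09, 4.64 and 4.25 in the other 4 arrays. Trib3 had 9.30 and 8.92 in the high pair and 6.31, 5.79, 7.65 and 6.51 in the other 4. For 12 of the 25 genes called in HER2 tumours, the highest array outside HER2 was an ErbB3 array. The pair was noticed from these values, so its separation carries no test.

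Against ErbB3, HER2 tumours were higher in 18 genes and lower in 0 (18.2% and 15.5% of all genes). With pairs as a block 9 were higher and 0 lower (9.77% and 7.58%). The largest differences were Vldlr at 2.04 (SE 0.42), Cth at 1.93 (SE 0.49), Trib3 at 1.38 (SE 0.46), Chac1 at 1.33 (SE 0.37) and Cars at 1.11 (SE 0.20). Trib3 and Chac1 were among those lost with the block, at adjusted p = 0.12 and 0.063 by limma. In a fit of these 2 groups alone 4 genes were higher and 1 lower (13.2% and 11% of all genes). Without the high ErbB3 pair, left out after seeing the data, 27 were higher and 0 lower (20.8% and 18.2%). Set against the other 12 groups, ErbB3 was called higher for Atf5 at 0.58 (SE 0.15), Slc1a4 at 0.56 (SE 0.12) and Cebpg at 0.27 (SE 0.07). It was called lower for 6 genes, among them Vldlr at -0.94 (SE 0.31) and Cars at -0.58 (SE 0.15). The background was 15% higher and 13.6% lower. With the block 3 were higher and 2 lower (5.8% and 6.12%).

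MAP3K7 (TAK1), a kinase of stress and inflammatory signalling, stood at the other end. Of the 35 genes, 15 were lower than the mean of the other 12 groups and 0 higher (12.3% and 12.2% of all genes), and with the block 8 lower and 0 higher (4.14% and 3.76%). The median difference was -0.34. The serine and folate genes were lower in 7 of 7 cases, 5 of them with the block. Psat1 had a mean of 9.71 ± 0.42 in MAP3K7 arrays (SD, n = 6) and differed by -0.74 (SE 0.16). Shmt2 had 8.94 ± 0.35 and differed by -0.63 (SE 0.13), and Mthfd2 had 9.21 ± 0.33 and differed by -0.70 (SE 0.17). Cth was lowest of all groups here, at 4.35, 3.88, 4.13, 3.48, 5.47 and 5.50, and differed by -1.47 (SE 0.36, adjusted p = 0.0019, limma). None of the 7 transcription factors was called, by limma with or without the block.

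One MAP3K7 array, T3 replicate 1, had a higher mean than the rest. Its mean over the 35 genes was 0.0060, against -0.52 to -0.34 in the other 5. It was high for stress genes, with 9.91 for Ddit3, the highest of the 70 arrays outside HER2, and 8.73 for Trib3, and low for Phgdh, at 9.06. The other array of its pair, T1 replicate 2, went the same way for these 3 genes. It was the next highest of the group for Ddit3, at 8.99, and for Trib3, at 7.50, and the lowest for Phgdh, at 8.89. Against MAP3K7 directly, HER2 tumours were higher in 28 genes and lower in 0 (20% and 16.4% of all genes), and in 23 and 0 with the block (10.2% and 8.08%). Cth differed by 2.93 (SE 0.49), Trib3 by 2.07 (SE 0.46), Chac1 by 2.02 (SE 0.37) and Psat1 by 1.44 (SE 0.22).

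In MAP3K11 tumours (MLK3, a kinase upstream of JNK and p38) the genes moved both ways: 7 were higher and 7 lower, against backgrounds of 25% and 29.3%, so neither share exceeded that of all genes. The serine enzymes Phgdh and Psat1 were lower. Phgdh had a mean of 9.32 ± 0.14 in the 6 MAP3K11 arrays (SD, range 9.17 to 9.56), a difference of -1.20 (SE 0.14, adjusted p = 8.3e-11, limma). Psat1 differed by -0.89 (SE 0.16) and Cebpg by -0.54 (SE 0.07). Higher were Nupr1 at 0.78 (SE 0.16), Aldh1l2 at 0.72 (SE 0.16) and Wars at 0.36 (SE 0.07), all of which kept the call with the block. With the block 3 were higher and 4 lower (17.3% and 22.1%). HER2 against MAP3K11 gave 20 higher and 1 lower (27.7% and 21.5%), and 15 and 0 with the block (19.4% and 13.9%). Phgdh and Psat1 each differed by 1.58 there (SE 0.19 and 0.22), and the 1 lower gene was Wars at -0.29 (SE 0.10).

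RONd160 tumours were led by other members of the list. Ddit4 had a mean of 11.73 ± 0.58 in RONd160 arrays (SD, n = 6), a difference of 1.11 (SE 0.21). Ddit3 had 9.21 ± 0.16 and differed by 0.82 (SE 0.18), and Atf4 had 11.81 ± 0.14 and differed by 0.36 (SE 0.08). Atf3 had 8.65 ± 0.18 and differed by 0.82 (SE 0.27). RONd160 ranked first of 13 groups for these 4 genes, and all but Atf3 kept the call with the block. In all, 6 genes were higher and 3 lower (11.4% and 11.9% of all genes), and 4 and 1 with the block (4.13% and 4.6%). Lower were Slc7a3 at -0.50 (SE 0.09), Atf5 at -0.48 (SE 0.14) and Slc1a4 at -0.34 (SE 0.12).

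PIP5K1B tumours had 8 genes higher and 1 lower (11.2% and 7.45% of all genes), 30 of 35 differences above 0 and a median difference of 0.25. Phgdh at 0.62 (SE 0.14) and Nars at 0.39 (SE 0.08) kept the call with the block, which left 2 higher and 0 lower (2.37% and 1.24%). The lower gene was Nupr1 at -0.48 (SE 0.16). RON+MSP tumours had 5 higher and 0 lower (4.18% and 4.39%), with 33 of 35 differences above 0, and Vldlr differed most, at 1.02 (SE 0.31). With the block limma called 0 there, with 8 of the 35 genes at an unadjusted p under 0.05 (0.224% of all genes called higher and 0.238% lower).

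FAK1 tumours, with 4 arrays, had 6 genes lower and 0 higher (5% and 3.42% of all genes). They were Atf5, Aldh1l2, Mthfd2, Slc1a5, Wars and Gars, and Wars alone, at -0.45 (SE 0.09), kept the call with the block, which called 0.418% of all genes lower and 0.389% higher. Without the T1 replicate 2 array, or without the T3 replicate 1 array, 1 gene was called in FAK1 tumours. The share of all genes called in those fits is not given here. In RSK2, TNK2 and FGFR2aIIIc tumours 1 gene each was lower: Cars at -0.43 (SE 0.15), Aldh1l2 at -0.61 (SE 0.17) and Sesn2 at -0.29 (SE 0.08), with 9.52%, 1.9% and 0.534% of all genes called lower and 8.73%, 3.26% and 1.08% higher. All 3 lost the call with the block, at adjusted p = 0.15, 0.26 and 0.51 by limma, where 1.1%, 0.0288% and 0.00721% of all genes were called lower and 1.49%, 0.0649% and 0.0649% higher. In FGFR2aIIIb and FGFR3 tumours limma called 0 of the 35 genes, with 2 and 5 at an unadjusted p under 0.05, where 7.17% and 1.35% of all genes were called higher and 4.69% and 1.25% lower. These comparisons share arrays with each other and with the HER2 comparison and are given side by side only. Over all 13 groups, limma's F test called 35 of 35 genes, where 85.9% of all genes were called, and 24 with the block (54%).

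**Figure D4:**
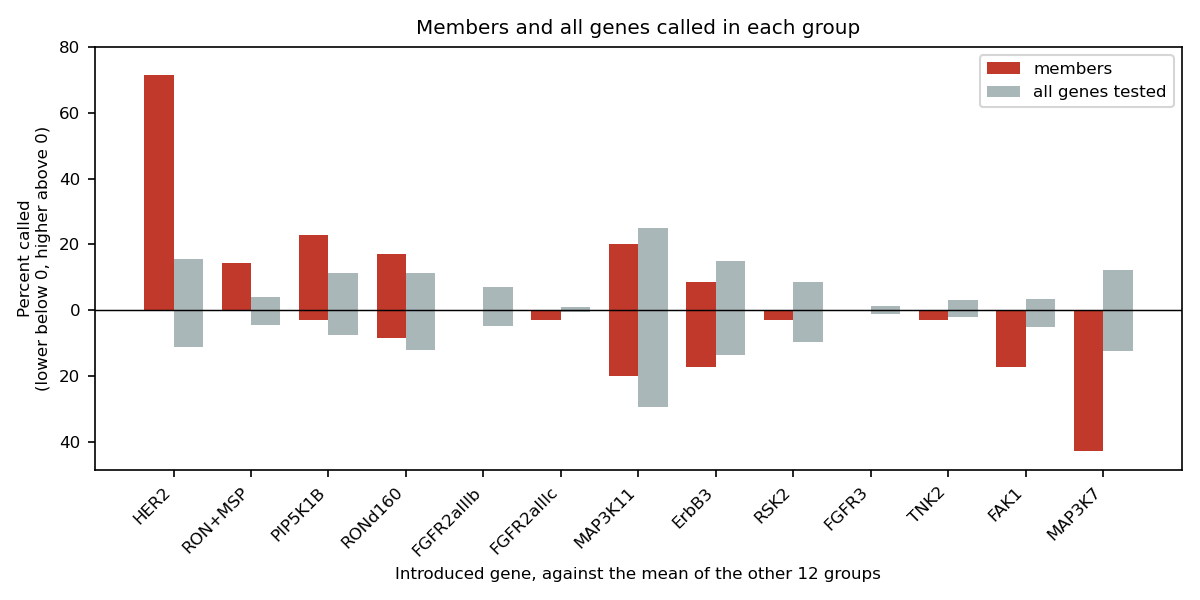
Percent of the 35 genes (red) and of all genes tested (grey) called higher, above 0, or lower, below 0, in each group against the mean of the other 12. The red bar exceeds the grey one most in HER2, upward, and in MAP3K7, downward. It is also longer, by less, upward in PIP5K1B and RON+MSP and downward in FAK1, among others.

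**Figure D5:**
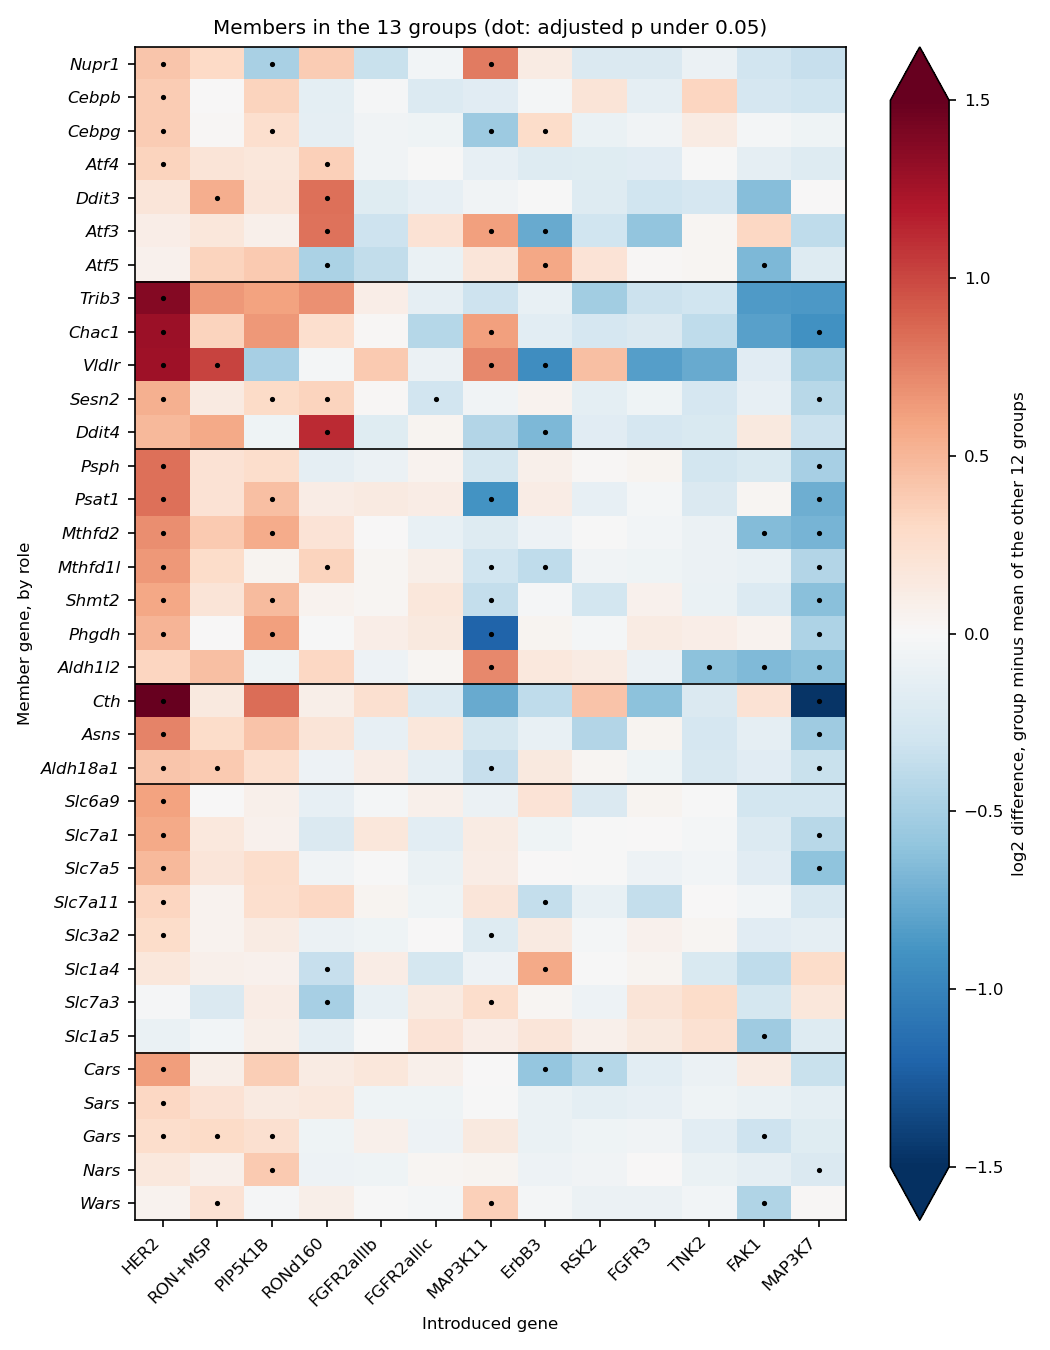
Difference of each group from the mean of the other 12 groups for the 35 genes, in log2 units on a red to blue scale that saturates at 1.5, with HER2 at the left and lines between role groups. A dot marks an adjusted p under 0.05. The HER2 column is red almost throughout, the MAP3K7 column blue, and the MAP3K11 column mixed.

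Between the T labels limma called 0 of the 35 genes, for T2 against T1 and for T3 against T1, and 0 of all genes (0% called), with 306 and 654 genes at an unadjusted p under 0.05. With the block it again called 0 of the 35, with 1 at an unadjusted p under 0.05 in each comparison, and of all genes 0 for T2 and 1, lower, for T3 (0.00721%).

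The genes varied together across arrays. The Pearson correlation of each gene with the mean of the other 34 had a median of 0.72 over the 76 arrays, 0.73 over the 13 group means and 0.67 over deviations within groups. Arrays of a group and of a pair share their source, so these are descriptions. Trib3, at 0.92, Mthfd2 and Sars, at 0.91 each, and Asns, at 0.90, followed the mean most closely over the 76 arrays. Slc7a3, at -0.19, and Slc1a5, at -0.01, did not follow it. Wars at 0.31, Slc1a4 at 0.32, Atf3 at 0.38, Nupr1 at 0.39 and Phgdh at 0.40 were loose. Atf4 itself correlated at 0.77.

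Among all other genes tested, the 5 most like the mean over the 13 group means were Gal (r = 0.94), a neuropeptide, Rcor2 (0.93), a corepressor, Aimp2 (0.91), a scaffold of the multi-synthetase complex, Yars (0.90), the tyrosine synthetase, and Ttll9 (0.89). Over the 76 arrays r was lower, at 0.41 for Gal, 0.60 for Rcor2, 0.54 for Aimp2, 0.87 for Yars and 0.62 for Ttll9. Gal also had a low level, with a mean of 5.26 in HER2 arrays. These 5 genes were chosen for following a mean that is highest in HER2, so their HER2 differences are a description. Aimp2 differed by 0.39 (SE 0.08) and Rcor2 by 0.40 (SE 0.09), with adjusted p under the threshold in both fits. Gal differed by 0.45 (SE 0.13), Yars by 0.29 (SE 0.09) and Ttll9 by 0.30 (SE 0.08), with adjusted p = 0.084, 0.065 and 0.070 by limma with the block.

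Other parts of the same pathways were described from lists of further genes, to be read against the 15.5% of all genes called higher and 11.1% called lower in HER2 tumours. Of 20 other ATF4-linked genes, 8 rose in HER2 tumours and 0 fell, 4 with the block, with a median of 0.23. They include Stbd1, a glycogen-binding protein (1.03, SE 0.22), the oxidoreductase Ero1a (0.73, SE 0.22), the alanine transaminase Gpt2 (0.68, SE 0.14) and the hypoxia and stress gene Ndrg1 (0.54, SE 0.20). Ero1a and Ndrg1 lost the call with the block. Of 14 other cytosolic synthetases, 8 rose and 0 fell, 2 with the block, led by Iars (0.39, SE 0.10) and Vars (0.34, SE 0.10). Of 15 mitochondrial synthetases 3 were higher, a share near that of all genes, and Sars2 was lower by 0.22 (SE 0.08). Yars2 (0.42, SE 0.08) alone kept the call with the block, and Tars2, Aars2 and Sars2 had adjusted p = 0.062, 0.24 and 0.26 by limma there.

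Of 16 other amino acid transporters 1 was higher, 6 were lower and 9 were not called. Slc38a2 (SNAT2), a glutamine and alanine carrier also on the ATF4 list, rose by 0.37 (SE 0.07). Among the 6, Slc7a7 fell by 0.53 (SE 0.10), Slc7a8 by 0.52 (SE 0.16) and Slc43a2 by 0.45 (SE 0.15). The median was -0.11, and with the block only Slc38a2, higher, and Slc7a7, lower, were called. Of 8 cytosolic folate genes 2 rose, Shmt1 (0.45, SE 0.13) and Atic (0.27, SE 0.06). Atic kept the call with the block and Shmt1 had adjusted p = 0.054 by limma.

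Of 13 kinases, phosphatases and sensors of eIF2, Ppp1r15b, a subunit of the eIF2 phosphatase, rose by 0.31 (SE 0.06) and the kinase Eif2ak3 (PERK) fell by 0.25 (SE 0.08). Of 17 ER chaperone and folding genes 0 rose and 1, Pdia6, fell by 0.19 (SE 0.07). Of 9 NRF2 targets, Slc7a11, itself one of the 35 genes, rose and Osgin1 fell by 0.33 (SE 0.11). With the block Ppp1r15b kept the call, while Eif2ak3, Pdia6, Slc7a11 and Osgin1 had adjusted p = 0.084, 0.22, 0.26 and 0.13 by limma. Of 20 mTORC1 genes 5 rose, among them Rptor (0.42, SE 0.15) and Rragc (0.21, SE 0.04), and Sesn1 fell by 0.51 (SE 0.16). With the block Rragc alone was called, and Rptor and Sesn1 had adjusted p = 0.10 and 0.058 by limma. Of 13 MYC and proliferation genes 3 rose, Myc (0.48, SE 0.11), Nop56 and Pcna, and Myc alone kept the call with the block. In MAP3K7 tumours 13 of these 13 genes were lower (12.3% of all genes), with a median of -0.43, and 9 with the block (4.14%). Their part in the MAP3K7 result was not tested.

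Markers of other cells in the tumour moved with HER2 as well. In bulk samples, fewer cells of a type and less RNA per cell cannot be told apart. Of 10 fibroblast markers, 8 were lower in HER2 tumours, led by Pdgfrb (-1.55, SE 0.24), as were 4 of 10 endothelial, 3 of 11 macrophage and 3 of 8 T and NK cell markers, and 0 were higher (11.1% of all genes lower). With the block limma called 5 fibroblast, 1 endothelial, 2 macrophage and 0 T and NK cell markers lower (3.63% of all genes), with 3 of the T and NK cell markers at an unadjusted p under 0.05. The summed level of the fibroblast list, given as the mean of its genes after centring each gene, was -1.09 to -0.38 in HER2 arrays and -1.52 to 0.91 in the others. The macrophage list spanned -0.70 to -0.29 in HER2 arrays and -1.13 to 0.95 in the others, the T and NK list -0.46 to -0.31 and -0.52 to 1.39, and the endothelial list -0.59 to -0.16 and -1.34 to 1.00. In the HER2 arrays the macrophage genes Csf1r and Lyz2 were still well above background, with means of 11.10 and 12.28, while Cd3g lay near it, at 3.10. Of 18 interferon genes 4 were lower, led by Rsad2 (-0.93, SE 0.30). With the block limma called 0 of them, with 5 at an unadjusted p under 0.05 and Rsad2 at adjusted p = 0.12.

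With the mean of these 4 marker lists as a covariate, added after seeing the data, 13 of the 35 genes were called higher in HER2 tumours and 0 lower (6.21% and 3.12% of all genes). They were Cebpb, Cebpg, Nupr1, Chac1, Sesn2, Psat1, Psph, Mthfd1l, Aldh18a1, Cth, Slc7a1, Slc3a2 and Slc6a9, and the median difference of the 35 genes was 0.36. The 12 that lost the call were Atf4, Trib3, Vldlr, Phgdh, Shmt2, Mthfd2, Asns, Slc7a11, Slc7a5, Cars, Gars and Sars. Some differences were smaller with the covariate, at 0.24 for Cars, 0.10 for Gars, 0.68 for Vldlr and 0.38 for Mthfd1l, against 0.63, 0.27, 1.27 and 0.65 without it. Others were larger, at 0.58 for Nupr1, 0.47 for Cebpb and 0.35 for Slc3a2, against 0.41, 0.38 and 0.28. In ErbB3 tumours 8 of 11 macrophage and 5 of 10 fibroblast markers were higher and 1 fibroblast marker was lower. There 14 of 18 interferon genes were higher (15% of all genes higher and 13.6% lower). With the block 6 macrophage markers, 4 fibroblast markers and 3 interferon genes were higher and 1 fibroblast marker lower (5.8% and 6.12% of all genes). With the covariate, HER2 against ErbB3 left 2 genes higher and 0 lower (4.03% and 2.6%). In MAP3K7 tumours 4 of 10 fibroblast and 3 of 11 macrophage markers were higher (12.2% of all genes). With the block limma called 2 and 0 of them (3.76% of all genes), with 3 of the macrophage markers at an unadjusted p under 0.05. With the covariate 13 of the 35 genes were called lower and 0 higher (9.45% and 9.76% of all genes).

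Skeletal muscle markers differed between arrays of the same group: their mean spanned -1.65 to 3.60 in HER2 arrays and -2.14 to 4.25 in the others, and 0 of 12 were called. With that mean as a covariate, 25 genes were again called higher and 0 lower (15.6% and 11.2% of all genes). Of 6 adipocyte markers 0 were called, by limma with or without the block, and their mean spanned -1.65 to 0.09 in HER2 arrays and -2.16 to 2.41 in the others. Of 9 epithelial markers, Krt8 was higher (0.41, SE 0.14), with adjusted p = 0.062 by limma with the block. Krt8 and Krt18 were high in HER2 arrays, with means of 12.93 and 12.92, Cdh1 had 7.66 and Esrp1 lay near background at 3.05.

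The 25 genes higher in HER2 tumours lie on 10 chromosomes. The median HER2 difference of those chromosomes over all their genes ran from -0.02 to 0.06.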

How the data were processed

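The authors deposited 1 log2 expression value for each of 45101 probe sets and each of 76 arrays, from 1.77 to 14.18. The submitters' processing notes name affy, and the method of background correction and normalization is not given here by any source. The array quartiles show that the values were normalized between arrays, and they were used as deposited. No array was identical to another, and the number of arrays limits the precision.

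Of the probe sets, 34958 name 1 gene, 932 several and 9211 none. Each gene took its probe set with the highest mean, and was tested if 4 or more arrays had it above their own 40th percentile. Two-sided moderated statistics came from limma 3.58.1 (statmod 1.5.0, R 4.3.3), in 1 fit of all arrays with introduced gene and T label as terms and 61 residual degrees of freedom. The Benjamini-Hochberg adjustment ran over all genes tested. Pairs of arrays were matched on the medians of 19 autosomes, and the correlation within pairs was estimated at 0.628. The fit without the block was also run on simulated data in which all arrays were independent. Paired arrays were not simulated, so that run says nothing about pairing.

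The 36 genes, the gene lists and HER2 as the main comparison were chosen with earlier results of these data known. By the rule for named genes, HER2 values are given array by array for up to 3 called genes of each role with the largest difference, and up to 4 called genes of each further list are named in each direction, along with the 5 genes most like the mean and up to 4 promoters. Single genes of other groups, and Atf4, Sesn2, Mthfd1l, Shmt2, Phgdh, Slc3a2 and Slc7a11, are given as values of members. Lists are described by counts and medians without a set test. Promoters are from RefSeq (GRCm38.p6), where 28 of the 36 genes were found. The alternatives changed the filter, normalization, probe set, T label, replicate number, pairs, variance prior, array weights and the arrays or groups in the fit. A gene that the series title names is left out.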

Additional observations from a re-analysis of the deposited data

Results flagged for a closer look

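Single arrays far from the rest of their group of 6 were looked for in 48 sets of values by Dixon's ratio, and 6 were found. Chance flags about 1 in 20 such sets.

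Chac1 was low in the HER2 array T1 replicate 2, at 8.08, against 9.19 to 9.74 in the other 5. Cars was low in the HER2 array T1 replicate 1, at 9.66, against 9.86 to 9.96. Psph was high in the HER2 array T2 replicate 1, at 9.81, against 9.65 to 9.71. Slc7a3 was low in that same array, at 4.54, against 5.08 to 5.38.

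For the mean of the 35 genes, the MAP3K7 array T3 replicate 1 was high at 0.0060, against -0.52 to -0.34 in the other 5. The RON+MSP array T1 replicate 2 was low at -0.090, against 0.20 to 0.33.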

How the results depend on the processing

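Over 33 alternatives and 35 genes, 1059 of 1155 differences between HER2 and the other 12 groups kept their direction and their side of the threshold, 69 lost the call, 9 gained it and 18 turned. The 18 are all in genes that were not called, among them Slc7a3, at 0.038 with quantile normalization, 0.040 with median centring, 0.0035, 0.0082, 0.00063 and 0.0092 without FGFR3, MAP3K11, MAP3K7 and TNK2, and 0.069 with the stromal and immune covariate (-0.01 in the fit as reported), Atf3, Atf5, Ddit3, Slc1a5 and Wars. With 1 pair of HER2 arrays left out Slc7a3 was between -0.12 and 0.17, Atf3 between -0.081 and 0.37, Atf5 between -0.12 and 0.19 and Ddit3 between -0.055 and 0.43, and the turns came without the pair of T2 replicate 1 and T3 replicate 1. With 1 HER2 array left out Slc7a3 was between -0.058 and 0.12, turning in 2 of 6 cases (0.12 and 0.0027), Atf3 between -0.029 and 0.27, also 2 of 6, and Atf5 between -0.022 and 0.16, in 1 of 6. With the covariate Slc1a5 was at 0.10 and Wars at -0.062. The count of genes called in HER2, 25, was 21 to 25 with 1 HER2 array left out, 22 to 26 with 1 other group left out, 15 without the T2 replicate 1 and T3 replicate 1 pair (21 and 23 without the others) and 13 with the covariate. Median centring gave 27, and there 74.1% of all called genes were higher, against 58.2% in the fit as reported. Array weights, whose estimation stopped before its tolerance was reached, gave 26 for HER2 and 5482 genes in all, against 3690, and the pair block gave 1324. With pairs as a random block the count was 5 for ErbB3, 1 for FAK1, 0 for FGFR2aIIIc, RON+MSP, RSK2 and TNK2, 7 for MAP3K11, 8 for MAP3K7, 2 for PIP5K1B, 5 for RONd160 and 9 for HER2 against ErbB3. With array weights it was 1 for FAK1, 2 for FGFR2aIIIb, 2 for FGFR3, 17 for PIP5K1B, 0 for RSK2 and 5 for TNK2. With the stromal and immune covariate it was 3 for ErbB3, 8 for RON+MSP, 0 for RSK2 and 2 for HER2 against ErbB3, and with the muscle covariate 2 for RON+MSP, 3 for RSK2 and 0 for TNK2. Without the filter it was 0 for FGFR2aIIIc and 3 for RON+MSP, and with all probe sets averaged 0 for FGFR2aIIIc and 4 for RSK2. With quantile normalization it was 2 for RSK2 and 2 for TNK2, with median centring 6 and 2, and without the T label 2 for TNK2. With 1 FAK1 array left out the count for FAK1 was 1 to 8. For groups other than HER2, the counts listed here for settings besides the pair block stand without direction or the share of all genes. In HER2 that share also changed with the setting, so these counts say nothing particular to the 35 genes. A fit of HER2 and ErbB3 alone called 5. The cause of these changes was not tested. Replicate numbers of the labels did not pair arrays of different groups (median correlation of deviations -0.01, against -0.0013 for other arrays). With the replicate block, 23 genes were called in HER2 and 3 in RON+MSP, and no other count moved by over 1.5 times.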
